A study of Mus musculus with 8 samples.

Results

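Plasma cells and plasmablasts are the antibody-secreting end stage of the B cell lineage, and 2495 of them were read in the spleens of control mice and of mice built to delete the translation initiation factor subunit gene Eif3e in activated B cells. They were chosen from 83704 single cells by their transcripts. A cell was taken with at least 10 UMIs (unique molecular identifiers, each 1 counted transcript) of Jchain and at least 3 of Xbp1, with a UMI of at least 1 of 4 further plasma cell genes (Sdc1, Prdm1, Tnfrsf17 and Derl3), and with no UMI of the T cell receptor partner genes Cd3d, Cd3e or Cd3g. The cKO mice carried Eif3e fl/fl, Cγ1Cre and Rosa26-YFP LSL, and the controls carried Cγ1Cre and Rosa26-YFP LSL without the floxed gene, so that Cre and the YFP reporter were common to all groups. Cγ1Cre is expressed from the immunoglobulin γ1 constant region locus once an activated B cell transcribes it, and the same event switches on YFP. All mice were 2 months old and on a C57BL/6J background, and each library pooled 2 to 3 mice. The labels give spleen as the source of every library, although the protocol also names lymph nodes. Cells were sorted either as total live cells or as YFP+ cells, which gave 4 groups of 2 libraries: control YFP+, cKO YFP+, control total and cKO total. The 2 libraries of a group came from 2 batches, which are written below as replicates 1 and 2.

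A plasma cell turns most of its output to antibody. PRDM1 (Blimp-1) closes the B cell program, XBP1 widens the endoplasmic reticulum (ER) and its folding and export machinery, and the J chain links IgM and IgA into polymers. The heavy chain constant gene in use names the isotype: IgM precedes class switching, and IL-4 acting through STAT6 drives the germline transcription that comes before switching to IgG1 and IgE. Short-lived plasmablasts divide, and mature plasma cells do not. eIF3e is 1 subunit of the eIF3 complex, which brings mRNA to the small ribosomal subunit.

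The control YFP+ libraries held 883 and 1122 plasma cells. In cKO YFP+ there were 154 and 123. The control total libraries held 45 and 31, and the cKO total libraries held 53 and 84. The small total groups limit every statement about them. The median cell had 11863 and 12528 non-immunoglobulin UMIs in control and 16084 and 19046 in cKO YFP+ libraries. In total libraries it had 11788 and 12379 in control and 14446 and 22449 in cKO. The median was thus higher in both cKO libraries of each sort, and in YFP+ the exact permutation test gave p = 0.333, the smallest that 2 libraries against 2 allow. Any 2 libraries shared between 51 and 102 cell barcodes, at most 0.974% of the smaller one, and at most 1 shared barcode was a plasma cell in both libraries of a pair.

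The marker genes bore out the name of the cells, apart from a fringe at the edge of the rule. The median plasma cell had 64 UMIs of Mzb1, an ER protein of antibody-secreting cells, and 29.2% of its UMIs were immunoglobulin. Its median for Ms4a1 (CD20), a surface gene of B cells that plasma cells switch off, was 2 UMIs. Of these 2495 cells 2081 came from control libraries. The median immunoglobulin share of a cell was 35.2% and 27.8% in control YFP+ but 15.4% and 20.9% in cKO YFP+. Just inside the Jchain threshold, 56 cells with 10 to 14 UMIs had a median immunoglobulin share of 1.44% and 17.5 Ms4a1 UMIs. Just outside it, 66 cells with 5 to 9 UMIs had 1.38% and 21. At the Xbp1 threshold, 133 members with 3 UMIs stood at 1.34% and 161 cells left out with 2 UMIs stood at 1.17%. Cells on both sides of the edge thus had less immunoglobulin, and at the Jchain edge more Ms4a1, than the median plasma cell. All comparisons of genes, the 2 tests of interaction included, were therefore also computed under a stricter rule, with at least 50 Jchain UMIs and 2 of the 4 further genes. It kept 723 of 883 and 927 of 1122 control YFP+ cells but 94 of 154 and 86 of 123 cKO YFP+ cells, so the fringe made up more of the cKO cells.

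Eif3e itself (chr15:43250058-43282719, minus strand, GRCm38) was not lower in cKO than in control plasma cells. In CPM, UMIs scaled to a total of 1000000 non-immunoglobulin UMIs, it stood at 187 and 221 for control and 193 and 208 for cKO plasma cells of the YFP+ sort. In the total sort it was 187 and 192 in control and 231 and 203 in cKO. The YFP+ groups overlapped, whereas both cKO total libraries lay above both controls. In YFP+ the fitted log2 difference of cKO over control was 0.01 (SE 0.26, adjusted p = 0.993 by edgeR's quasi-likelihood test with Benjamini-Hochberg adjustment). The libraries count the 3′ ends of transcripts, which may lie outside the deleted part of the gene, so this level is a limited check of the deletion. The 14 genes of the eIF3 complex had 0 genes called in YFP+ plasma cells by edgeR or by DESeq2, and 0 had an unadjusted p under 0.05.

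The 6 genes of the rule are a description only, because they chose the cells. In YFP+, Jchain, the polymer linker of IgM and IgA, stood at 35074 and 28873 CPM in control and at 18096 and 21702 in cKO. Xbp1, the secretory transcription factor, stood at 1174 and 1471 in control and 702 and 947 in cKO. Prdm1, the repressor of the B cell program, stood at 273 and 136 in control and 83.1 and 65.2 in cKO. For each of these 3 genes both cKO libraries were below both controls. The same order was seen for Sdc1 (CD138, 83.8 and 98.2 against 46.4 and 67.3 CPM) and Tnfrsf17 (the APRIL receptor BCMA, 147 and 146 against 71.3 and 73.5). Derl3, an ER degradation gene, was at 345 and 348 in control and at 150 and 335 in cKO, so that 1 cKO library lay near the controls. In total plasma cells the cKO libraries were again below the controls for Jchain, Xbp1, Prdm1, Tnfrsf17 and Sdc1, although Sdc1 came close (84.7 and 145 against 69.4 and 84.5 CPM). Derl3 was at 324 and 396 in control and at 294 and 524 in cKO total, so the groups overlapped.

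The first comparison asked how many plasma cells each spleen fraction held. Among YFP+ cells they made up 9.52% and 9.63% of control and 1.52% and 1.18% of cKO cells. The cKO mean was 7.10-fold lower (9.57% ± 0.0778 against 1.35% ± 0.243, SD, n = 2), the groups were far apart, and the exact permutation p was 0.333, the smallest possible here. Among total splenocytes plasma cells were rare in both genotypes: 0.470% and 0.268% of control and 0.506% and 0.794% of cKO cells. There the cKO mean was 1.76-fold higher (0.650% ± 0.204 against 0.369% ± 0.143) and the groups did not overlap, again with an exact p of 0.333. They did overlap under the stricter rule, at 0.376% and 0.234% in control and 0.372% and 0.558% in cKO, and with B cells and plasma cells as the denominator, at 0.789% and 0.434% against 0.784% and 1.34% (exact p = 0.667 in both). The difference of 0.281 percentage points also fell to 0.137 without cKO total 2. The 95% exact binomial intervals of control total 1 (0.343 to 0.628%) and cKO total 1 (0.379 to 0.661%) did overlap. These intervals cover counting error only. The 2 log2 differences were −2.84 in YFP+ and 0.84 in total, and their difference of −3.68 had an exact permutation p of 0.0556, the smallest of the 36 ways to label the libraries within sorts, and of 0.111 under the stricter rule or with the B cell denominator. These labelings treat the 2 sorts as independent, although the YFP+ and total libraries of a genotype shared batches, so these p-values can be too small. A share counts cells against all other cells sorted with them, so a change in plasma cells and a change in the other cells cannot be told apart.

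**Figure D1:**
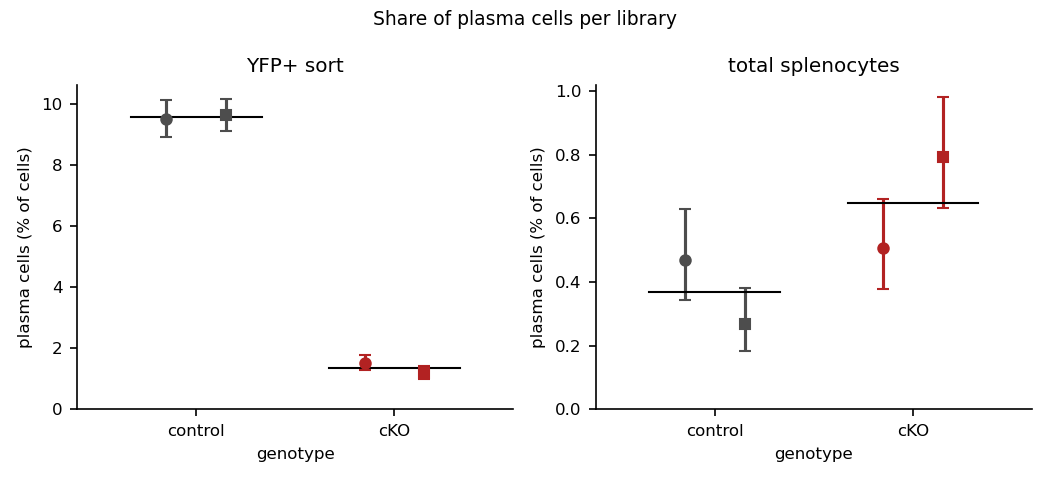
Plasma cells as a percentage of all cells kept in each library, by genotype and sort; points are libraries, bars their 95% exact binomial intervals and lines the group means. Control YFP+ lies near 9.6% and cKO YFP+ near 1.3%, and all 4 total libraries lie below 0.8%.

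The share of dividing plasma cells overlapped between the genotypes in YFP+ over all members. A cell was counted as cycling with at least 2 UMIs over 6 proliferation genes (Mki67, Top2a, Cdk1, Birc5, Ube2c and Tpx2) after each cell was thinned to 2000 non-immunoglobulin UMIs. That share was 35.2% and 42.0% in control and 40.3% and 36.6% in cKO YFP+ cells, with overlapping groups and an exact permutation p of 1. Among total libraries it was 29.5% and 29.0% in control and 40.4% and 36.9% in cKO, with an exact p of 0.333. Under the stricter rule the YFP+ shares were 28.9% and 36.9% in control and 21.3% and 20.9% in cKO, groups that did not overlap (difference −11.8 percentage points, exact p = 0.333). The total difference changed from 9.36 to −2.98 points, so the outcome in both sorts depended on the rule for members.

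Immunoglobulin took a smaller part of the transcripts of cKO YFP+ plasma cells. It made up 31.6% and 27.9% of their UMIs in control and 18.2% and 21.8% in cKO, a difference of −9.72 percentage points with an exact permutation p of 0.333. In control total plasma cells it was 29.9% and 36.1%, and in cKO total 22.8% and 25%. All 4 cKO libraries lay below all 4 controls. Because of this, immunoglobulin UMIs were left out of the library sizes in all comparisons of genes.

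The isotypes differed between the genotypes in both sorts. Each plasma cell was given the heavy chain constant gene that held at least 50% of its heavy chain constant UMIs, where it had at least 10, which called 854 and 956 control YFP+, 147 and 107 cKO YFP+, 44 and 28 control total, and 51 and 76 cKO total cells. Cells led by Ighe (chr12:113269260-113273248, minus strand) were 1 and 2 cells in control YFP+ but 17 and 44 in cKO YFP+. As a share of called cells this was 0.117% and 0.209% against 11.6% and 41.1%. Total libraries held 0 and 1 such cells in control and 10 and 29 in cKO, or 19.6% and 38.2% of the called cKO cells. The control total library with 0 of 44 had a 95% exact interval of 0 to 8.04%, and the other, with 1 of 28, stood at 3.57% (95% exact interval 0.0904 to 18.3%). Ighe-led cells thus numbered 2 or fewer in each control library and 10 or more in each cKO library, with batch 2 above batch 1 in both sorts.

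edgeR's quasi-likelihood test over the isotypes with Benjamini-Hochberg adjustment called the Ighe share higher in cKO YFP+ (log2 difference 6.65, adjusted p = 2.91e-04) and in cKO total (3.64, adjusted p = 0.0281). These fitted values rest on 3 and 1 Ighe-led control cells in all, and the ratio of the summed shares was 145 in YFP+ (95% counting interval 47.3 to 722) and 22.1 in total (3.74 to 895). Such intervals cover counting error of the pooled cells only and leave out the spread between libraries. With the batch number as a block the adjusted p-values of edgeR in YFP+ and total were 0.00187 and 0.0448, and under the stricter rule 4.41e-04 and 0.0390. Plasma cells held 82.3% and 95% of all Ighe UMIs in the cKO YFP+ libraries and 82.5% and 60.2% in cKO total. At most 0.355% of other B cells in any library reached 10 Ighe UMIs, and 0 T cells did. A single Ighe UMI was found in up to 16.0% of T cells (cKO total 2), so single UMIs were not read. Ighe-led cells with a clear heavy chain V gene used many of them: 13 V genes were seen in 15 such cells of cKO YFP+ 2 and 13 in 16 of cKO total 2. These were 15 of 44 and 16 of 29 Ighe-led cells. In cKO YFP+ 1 and cKO total 1 only 2 of 17 and 4 of 10 had a clear V gene.

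Cells led by Ighg1 (chr12:113325240-113330523, minus strand) numbered 20 and 165 in control against 42 and 20 in cKO YFP+. These shares, 2.34% and 17.3% against 28.6% and 18.7%, were higher in both cKO libraries but not called (log2 difference 1.26, adjusted p = 0.399, edgeR's quasi-likelihood test with Benjamini-Hochberg adjustment). They overlapped under the stricter rule, at 2.27% and 17.5% against 19.1% and 11.4% (0.63, adjusted p = 0.617). Among total cells Ighg1 led 0 and 0 control cells against 21 and 20 cKO cells, and this was called (adjusted p = 0.0190; 0.0448 with the block and 0.0390 under the stricter rule). With the controls set at 3 cells per library, the mean share was at least 3.85-fold higher in cKO. The calls of Ighe and Ighg1 in total plasma cells were lost without either control library. Cells led by Ighm took 55.7% and 29.8% of control YFP+ and 33.3% and 11.2% of cKO YFP+ called cells, groups that overlapped (−0.93, adjusted p = 0.399). Among the total libraries Ighm-led cells made up 86.4% and 75% of control and 33.3% and 17.1% of cKO cells. That difference of −1.67 missed the threshold without the batch block (adjusted p = 0.0842) and passed it with the block (adjusted p = 0.0448). Control YFP+ differed between its own batches: replicate 1 was mostly IgM with 134 Igha-led and 95 Ighg3-led cells, and replicate 2 held 213 Ighg2c-led and 146 Ighg2b-led cells.

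**Figure D2:**
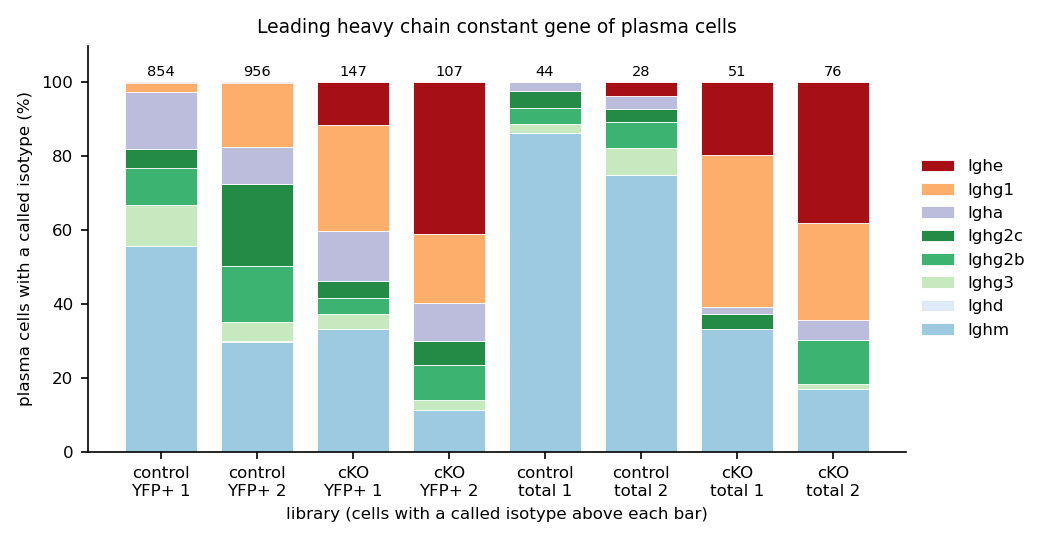
Isotypes of plasma cells in each library as stacked percentages of the cells whose leading heavy chain constant gene was called; the number of called cells stands above each bar. The Ighe segment is seen in all 4 cKO libraries and stands at no more than 3.57% in the 4 control libraries.

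Many of the Ighg1-led cells of the cKO lay near the edge of the rule. Of those cells 42.9% and 45% met the stricter rule in cKO YFP+ and 57.1% and 35% in cKO total, against 80% and 84.8% of Ighg1-led control YFP+ cells and 81.8% to 90% of Ighe-led cKO cells. The median Ighg1-led cell had 113, 49, 569 and 55 UMIs of Ighg1 in cKO YFP+ 1 and 2 and cKO total 1 and 2, and 935.5 and 756 in control YFP+. Its immunoglobulin share was 3.55%, 2.34%, 17.1% and 1.49% and its Ms4a1 count 10.5, 16, 6 and 29 UMIs in those cKO libraries, so that in all but cKO total 1 it was closer to the cells at the thresholds than to the median plasma cell. Those that met the stricter rule had 803.5, 1541, 941 and 2331 Ighg1 UMIs in cKO against 954 and 821.5 in control YFP+, and 2.5, 4, 0 and 3 Ms4a1 UMIs against 3 and 2. Among these cells the Ighg1 count of 1 cKO library lay below both controls, 1 between them and the others above both.

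The median Ighe-led cKO cell had 755, 823.5, 798 and 1228 UMIs of Ighe, and 840.5, 1038, 905 and 1415 under the stricter rule. It held 12, 11, 10.5 and 5 Ms4a1 UMIs, or 11, 10, 9 and 4 under the stricter rule. The median Ighm-led cell had 982 and 1597.5 UMIs of Ighm in cKO YFP+ against 1462.5 and 1155 for control YFP+. Its counts among total cells were 1828 and 2215 for cKO and 1436 and 2013 for control, so the groups overlapped in both sorts. Of Ighm-led cells 65.3% and 66.7% met the stricter rule in cKO YFP+, against 79.2% and 77.5% in control YFP+.

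The next comparison asked which genes differed between cKO and control YFP+ plasma cells. Immunoglobulin genes were left out of the library sizes only, so edgeR's counts of genes here and below include those that passed. Counts were summed per library, and of 11698 genes tested 356 passed an adjusted p of 0.05 (3.04% of genes; 211 higher, 1.8%, and 145 lower, 1.24%). With the batch as a block 1250 genes passed, 591 higher (5.05%) and 659 lower (5.63%), and under the stricter rule 313 (2.8%), 225 higher (2.02%) and 88 lower (0.788%). Every adjusted p from here on comes from edgeR's quasi-likelihood test with Benjamini-Hochberg adjustment over all genes tested. The libraries are pools of mice, so p-values measure the spread between such pools. The batch block leaves few degrees of freedom for that spread, so p-values with it rest largely on a variance shared over genes. Because the genotypes differed in isotypes, a difference in a gene can include the difference in isotypes. Without the Ighe- and Ighg1-led cells 111 genes passed (0.962%; 38 lower, 0.329%), of which 100 were among the 356, and among Ighm-led cells alone 170 (1.73%; 106 higher, 1.08%). Fits without 1 library called 125, 202, 342 and 307 genes in turn (without control replicate 1, control replicate 2, cKO replicate 1 and cKO replicate 2), of which 95, 130, 196 and 175 were among the 356.

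Genes that respond to IL-4 were higher in cKO YFP+ plasma cells. Of 10 such genes tested 7 rose and none fell, and their median log2 difference was 1.69 against −0.02 over all genes. The gene lists, this one included, were written with earlier results of these data known, so their counts and medians are descriptions. Nfil3, a transcription factor needed for IgE switching, stood at 6.07 and 7.99 CPM in control and at 49.9 and 63.9 in cKO (log2 difference 2.97, adjusted p = 1.6e-06). Fcer2a, the low-affinity IgE receptor CD23, stood at 14 and 20.2 against 99.2 and 133 (2.74, adjusted p = 7.94e-06). The IL-4 receptor chain Il4ra stood at 8.03 and 8.05 in control and at 25.7 and 41.6 in cKO (2.03, adjusted p = 2.26e-04). In all 3 the lower cKO library was more than 3 times the higher control. The cytokine signalling inhibitors Socs1 (1.80, adjusted p = 0.00149) and Cish (2.78, adjusted p = 0.00182) and the membrane channel genes Tmem176a (1.58) and Tmem176b (1.44) rose as well. Batf, a switch factor, was not called in the fit over all members (1.14, adjusted p = 0.132) and was called once the batch block was added (adjusted p = 8.95e-07). Stat6 and Il2rg, which carry the IL-4 signal, were not called, at 0.29 and 0.17. Without Ighe- and Ighg1-led cells 7 of the 10 were still called higher, with a median of 1.53, and among Ighm-led cells alone 4 were, with a median of 1.13. Nfil3 and Fcer2a were called in each of the 16 and 17 alternatives that tested them, and under the stricter rule for members 8 of the list were called, with a median of 2.14.

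Some genes of costimulation and antigen presentation were higher as well. Of 10 costimulation genes 4 rose and 1 fell, with a median of 0.90. Tnfsf4, the OX40 ligand, stood at 0.209 and 0.380 CPM in control, which is 3 and 6 UMIs, and at 14.2 and 15.3 in cKO (4.85, adjusted p = 1.32e-06). Cd80, a ligand of CD28, stood at 18.4 and 10.6 against 38.4 and 37.2 (1.37, adjusted p = 0.0072). Cd40 stood at 13.9 and 11.5 against 30.1 and 37.6 (1.39, adjusted p = 0.00306). None of these 3 overlapped between the groups. Icam1 rose less (0.90, adjusted p = 0.0409) and lost the call without any 1 of the 4 libraries. Cd274, the inhibitory ligand PD-L1, fell from 115 and 153 to 67.6 and 56.2 CPM (−1.11, adjusted p = 0.0191), a call that the stricter rule ended (−0.67, adjusted p = 0.333). Once the Ighe- and Ighg1-led cells were left out, edgeR called 0 of the 8 costimulation genes tested, of which 5 had an unadjusted p under 0.05, while 7 of the 8 differences stayed positive with a median of 0.74.

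All 12 MHC II genes tested had a positive difference in cKO YFP+ plasma cells, with a median of 0.79, and 4 were called, or 7 with the batch block. Ciita, the master activator of MHC II transcription, stood at 48.2 and 36.6 CPM in control and at 98.0 and 94.9 in cKO (1.18, adjusted p = 0.0102). H2-Oa, which restrains peptide loading, stood at 33.9 and 35.1 against 73.8 and 80.7 (1.16, adjusted p = 0.00952). H2-DMb2, part of the loading chaperone, stood at 166 and 180 against 344 and 392 (1.09, adjusted p = 0.0306). In each of the 3, both cKO libraries lay clearly above both controls. H2-DMb1 was called at a smaller size (0.89, adjusted p = 0.0486) but not without any 1 of the 4 libraries, and H2-DMa missed the threshold without the block (1.02, adjusted p = 0.0576, and 1.61e-04 with it). Without Ighe- and Ighg1-led cells 1 of the MHC II genes was called, while all 12 differences stayed positive with a median of 0.66, and under the stricter rule 5 were called with a median of 0.92. The 24 genes of B cell identity had a median of 0.24, with 1 called in each direction, of which Cr2, the complement receptor CD21, fell from 46.8 and 30 to 11.8 and 6.57 CPM (−2.02, adjusted p = 0.0016).

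The lists of the plasma cell program had negative medians, although few of their genes passed the test one by one. The same fit called 1.24% of all genes lower. Of 26 identity genes outside the rule 3 fell and none rose, with a median of −0.60, and with the batch block 12 fell and 1 rose. Cd9, a tetraspanin of plasma cells, stood at 52.4 and 53.5 CPM in control and at 21.0 and 18.6 in cKO (−1.41, adjusted p = 0.00263). Creb3l2, a secretory pathway transcription factor, stood at 196 and 193 against 75.0 and 86.9 (−1.27, adjusted p = 0.00641). Cd28, a survival receptor of plasma cells, stood at 91.1 and 121 against 49.6 and 41.2 (−1.22, adjusted p = 0.0103). Both cKO libraries lay below both controls in each of the 3. Of 31 ER chaperone and unfolded protein response genes 1 was called, Atf6, a sensor of unfolded protein, from 358 and 318 to 161 and 165 CPM (−1.05, adjusted p = 0.0354), while all 31 differences were negative with a median of −0.46. Of 49 genes of ER translocation, glycosylation and export, 1 was called, the coat protein gene Sec24d (165 and 136 against 65.5 and 78.1; −1.06, adjusted p = 0.0216), with a median of −0.52. With the block, which called 5.63% of all genes lower, 8 and 18 genes of these 2 lists fell and none rose. Creb3l2, Cd28, Atf6 and Sec24d were not called under the stricter rule for members or without either cKO library, and none of the 5 named genes of these lists was called without cycling cells or without Ighe- and Ighg1-led cells.

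The negative median of the identity genes was still −0.48 without Ighe- and Ighg1-led cells, and that of the ER chaperones was −0.52. Under the stricter rule the medians of the identity, ER chaperone and export lists were −0.40, −0.21 and −0.28. Among Ighg1-led cells alone 17 identity genes, 25 ER chaperones and 30 export genes were called lower, with medians of −1.25, −1.14 and −1, in a fit that called 394 of 7202 genes lower (5.47%) and 182 higher. The 6 genes of the rule were lower there, but they chose the cells and are a description only. Most of the cKO cells in that comparison did not meet the stricter rule. Among the Ighg1-led cells that did, 18 and 9 in cKO and 16 and 140 in control, edgeR called 1 identity gene lower and 0 genes of the ER chaperone and export lists, with 5, 5 and 6 genes of the 3 lists under an unadjusted p of 0.05 and medians of −0.43, −0.44 and −0.34. In the same cells 3 of 4 IL-4 response genes tested were higher (median 1.55), in a fit that called 41 of 4142 genes (0.99%), 27 of them higher (0.652%). The rest of that list did not pass the filter on low counts there. A gene scarce in control can pass it through the cKO libraries where it is high, so this count and median are descriptions only.

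Many ER chaperone genes answer to ATF6 and XBP1 through the ER stress response element, which is read here as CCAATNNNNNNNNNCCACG on either strand. The 4 stretches that follow hold it in the promoters of 4 genes of the list whose 31 differences were all negative (RefSeq sequence, GRCm38.p6, 5′ to 3′ on the gene's strand; capitals mark the element):
Hspa5, chr2:34772005-34772063, plus strand: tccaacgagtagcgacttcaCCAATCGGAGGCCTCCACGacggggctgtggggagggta
Hsp90b1, chr10:86705618-86705676, minus strand: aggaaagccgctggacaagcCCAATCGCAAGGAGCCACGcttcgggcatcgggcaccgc
Calr, chr8:84847055-84847113, minus strand: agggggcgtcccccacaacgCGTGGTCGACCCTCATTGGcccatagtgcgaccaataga
Pdia6, chr12:17266471-17266529, plus strand: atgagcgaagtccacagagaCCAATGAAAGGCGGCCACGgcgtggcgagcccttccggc

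The element ended 46 bases before the transcription start in Hspa5, 193 in Hsp90b1, 143 in Calr, where it lies on the opposite strand, and 79 in Pdia6. It occurred in 39 of 32851 RefSeq promoter windows (0.119%; 250 bases before to 50 after a start) and in 8 of the 26 ER chaperone genes with a window: Calr, Canx, Creld2, Dnajc3, Hsp90b1, Hspa5, Pdia6 and Syvn1. The 8 genes had a median difference of −0.40 in cKO YFP+ plasma cells and the other 18 one of −0.50; the difference between them was not tested. A match describes the letters and not a bound factor.

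Other groups had few or no calls. Among 34 cell cycle genes edgeR and DESeq2 called 0, and 0 had an unadjusted p under 0.05, with a median of −0.06. With the stricter rule edgeR again called 0, but 8 had an unadjusted p under 0.05, only 2 of the 34 differences were positive and the median was −0.49. Among 21 tested genes of survival and death 2 rose, the cytokine receptor gene Il21r (1.32, adjusted p = 0.00394) and the cell cycle inhibitor Cdkn1a (1.25, adjusted p = 0.0461), and with the block 3 rose and 2 fell. The positioning and adhesion list had 1 gene called of 20, the gut-homing integrin chain Itgb7 (−0.90, adjusted p = 0.0462). Of 24 interferon-stimulated genes tested (of 30) 2 fell, with a median of −0.42: Isg15, a ubiquitin-like modifier, stood at 40.3 and 41.7 CPM in control and at 9.15 and 22.3 in cKO (−1.39, adjusted p = 0.04), and Gbp7 differed by −1.57 (adjusted p = 0.0317). With the block 8 of them fell. Itgb7 and Gbp7 lost the call without any 1 of the 4 libraries. The stricter rule ended the calls of Itgb7, Isg15 and Gbp7 (adjusted p = 0.388, 0.336 and 0.0997), and edgeR then called 0 of 23 interferon-stimulated and 0 of 20 positioning genes, with 3 and 4 under an unadjusted p of 0.05 and medians of −0.14 and −0.074. The 32 tested genes of the integrated stress response, the 27 of translation initiation outside eIF3 and the 53 of oxidative phosphorylation had 0 calls by edgeR and by DESeq2, with 3, 3 and 0 genes under an unadjusted p of 0.05. The 82 ribosomal protein genes tested also had 0 calls by both tools, and 1 under an unadjusted p of 0.05, though 80 of their differences were positive, with a median of 0.34.

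Among the immunoglobulin constant genes themselves, on the same scale, Ighe stood at 70.4 and 55.8 CPM in control and at 3863 and 16405 in cKO YFP+ cells (7.32, adjusted p = 0.0165). Iglc2, the constant gene of a lambda light chain, fell from 7457 and 6460 to 1728 and 1442 (−2.13, adjusted p = 0.0013). Ighg3 fell as well (−2.06, adjusted p = 0.00779). Immunoglobulin constant genes resemble each other, so reads could be split between near-identical copies, and Ighg2b and Ighg2c values are the least certain.

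Outside the lists, the largest increases were in genes scarcely detected in control plasma cells. Ryr2, a calcium release channel of the ER, had 6 and 3 UMIs in all control YFP+ plasma cells and 116 and 81 in the cKO, or 0.419 and 0.190 CPM against 34.2 and 29.6 (5.95, adjusted p = 1.23e-08). Emp2, a tetraspan membrane protein, stood at 0.768 and 0.888 against 29.8 and 69.0 (5.55). Scn3a, a sodium channel (5.63), Thy1 (4.99), the cytokine receptor gene Lifr (4.63) and Tnip3, an inhibitor of NF-κB signalling (4.56), were also among the largest. The lowest ratios were in the chemokine gene Ccl4, which had 25 and 49 UMIs in control and 0 in both cKO libraries (at least 5.02-fold lower), and in Tmed6, an ER-to-Golgi cargo gene, at 31.3 and 22.3 against 3.84 and 1.82 CPM (−3.11). Nrp1, a semaphorin and VEGF co-receptor, fell from 20 and 25.1 to 4.13 and 3.28 CPM (−2.52, adjusted p = 1.04e-04).

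**Figure D3:**
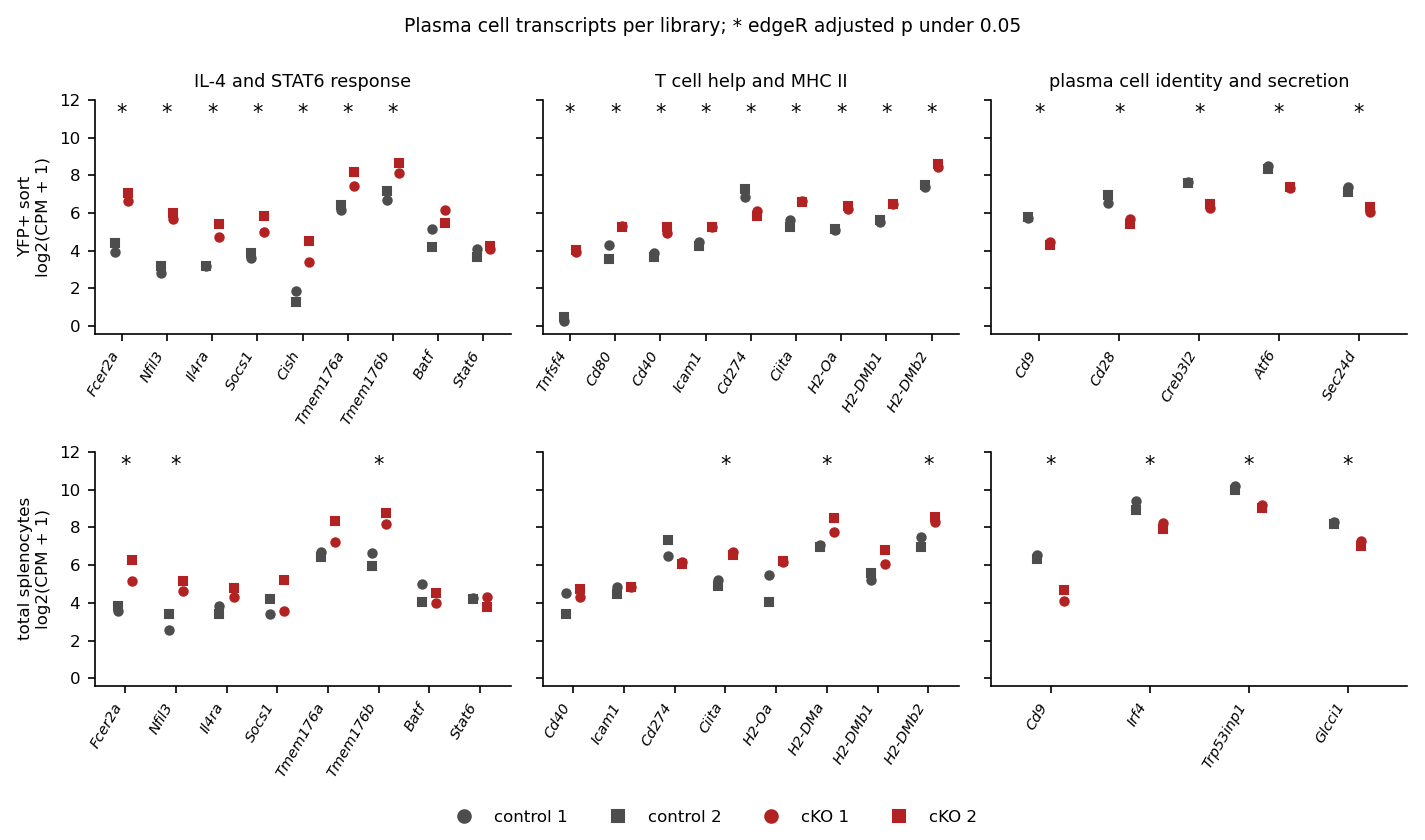
Levels of named genes in plasma cells of each library as log2(CPM + 1), in YFP+ libraries (upper row) and total libraries (lower row); points are libraries (circles for replicate 1, squares for replicate 2) and an asterisk marks an adjusted p under 0.05 in edgeR's quasi-likelihood test. In YFP+ the cKO points of Nfil3, Fcer2a and Tnfsf4 lie above both control points, and those of Cd9, Creb3l2 and Atf6 lie below them.

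Markers of other cells were low and mostly not higher in the cKO. The summed level of the T cell list, the gate on Cd3 genes aside, was 97.4 and 62.8 CPM in control and 83.7 and 74.2 in cKO libraries of the YFP+ sort. The myeloid list summed to 674 and 397 against 303 and 312, the plasmacytoid dendritic cell list to 490 and 342 against 292 and 283, and the NK list to 18.5 and 22.6 against 8.43 and 4.85. The erythroid list summed to 26.4 and 39.5 against 44.2 and 16.3. Only the T cell and erythroid sums overlapped between the genotypes, and the other 3 were lower in both cKO libraries. The dendritic cell gene Siglech was at 0 in 7 of 8 libraries. Among the plasmacytoid dendritic cell genes 1 rose, Pacsin1 (1.25, adjusted p = 0.0226), and 1 fell, Cox6a2 (−3.32, adjusted p = 0.0351). Of the T cell, myeloid, erythroid and NK lists edgeR and DESeq2 called 0 genes, and 1 gene of each list had an unadjusted p under 0.05. In the fits over fewer cells the erythroid list moved: 2 of 3 genes tested were called higher among Ighm-led cells (median 2.42), and without Ighe- and Ighg1-led cells edgeR called 0 of 5, with 3 under an unadjusted p of 0.05 and a median of 0.82. The part of these cells in the results was not tested.

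The same comparison in total splenocytes, where plasma cells had not been gated on YFP, tested 7800 genes and called 99 (1.27%; 44 higher, 0.564%, and 55 lower, 0.705%). Without 1 library the count was 277 (control replicate 1), 367 (control replicate 2), 146 (cKO replicate 1) and 79 (cKO replicate 2), of which 84, 99, 68 and 42 were among the 99. With the batch block 484 were called (6.21%; 205 higher, 2.63%, and 279 lower, 3.58%), and without the Ighe- and Ighg1-led cells 7, of which 5 were among the 99. Leaving those cells out also left fewer cells to sum, and DESeq2 called 58 genes in all cells. The stricter rule for members gave 15 calls, 11 of them among the 99, and without cycling cells 13.

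Some gene groups that carried calls in YFP+ did so here as well. Of 9 IL-4 response genes 3 rose, with a median of 0.89. Tmem176b stood at 100 and 60.9 CPM in control and 288 and 440 in cKO (2.13, adjusted p = 0.00282). Fcer2a stood at 11 and 13.3 against 34.1 and 76.8 (2.10, adjusted p = 0.0331), and Nfil3 at 4.88 and 9.51 against 24.1 and 34.9 (1.89, adjusted p = 0.0386). No library of one genotype reached the other's range in these 3 genes, but Fcer2a and Nfil3 were not called without cKO replicate 2 or under the stricter rule. Of the 12 MHC II genes all differences were positive (median 0.88) and 3 were called, 11 with the block, led by Ciita at 36.6 and 28.5 against 102 and 91.3 CPM (log2 difference 1.5, adjusted p = 0.0145). Under the stricter rule edgeR called 0 MHC II genes, 11 had an unadjusted p under 0.05, and the median was 0.89. The 5 costimulation genes tested had 0 calls by edgeR and by DESeq2, with 1 under an unadjusted p of 0.05 and a median of 0.37. B cell identity genes had 2 higher and 1 lower call, among them Bach2, the repressor of plasma cell differentiation, from 245 and 262 to 545 and 443 CPM (0.95, adjusted p = 0.0462), a call that the stricter rule ended.

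Of 24 identity genes tested in total plasma cells 4 fell and none rose (median −0.60), and 12 fell with the block. Irf4, the transcription factor that plasma cells depend on, stood at 669 and 483 CPM in control and 298 and 242 in cKO (−1.10, adjusted p = 0.0267). Cd9 stood at 92.7 and 78.0 against 16.1 and 24.4 (−1.95, adjusted p = 0.00427). Trp53inp1 (1182 and 999 against 572 and 516; −1, adjusted p = 0.0242) and Glcci1 (−1.05, adjusted p = 0.0308) made up the 4. None of the 4 was called under the stricter rule. The survival gene Bcl2 fell from 139 and 103 to 44.2 and 46.4 CPM (−1.39, adjusted p = 0.0143) but was not called under the stricter rule, and the plasma cell homing receptor Cxcr3 from 48.8 and 70.4 to 4.01 and 3.99 (−3.37, adjusted p = 2.06e-04). Among Ighm-led cells alone, 38 and 21 in control and 17 and 13 in cKO, the differences of Cd9, Trp53inp1 and Bcl2 were 0.02, 0.32 and 0.46 (adjusted p = 0.999 for each), and without Ighe- and Ighg1-led cells they were −0.71, −0.23 and −0.23 (adjusted p = 1 for each). The ER chaperones had 0 calls by edgeR and by DESeq2, 3 genes under an unadjusted p of 0.05 and a median of −0.10, and the export genes had 0 and 0 calls, 2 such genes and a median of −0.18. Both medians were above 0 under the stricter rule, at 0.28 and 0.16. Of the 34 cell cycle genes both tools called 0, with 3 under an unadjusted p of 0.05, and 3 rose with the block. Of the 14 interferon-stimulated genes tested 0 were called by either tool and 6 had an unadjusted p under 0.05, with a median of −0.73.

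Among genes outside the lists, Emp2 had 0 UMIs in both control total libraries and 47 and 129 in cKO total (at least 24.8-fold higher, adjusted p = 2.06e-04). This bound, like the others for genes at 0 UMIs, sets 3 UMIs over all libraries of the group together. Gadd45g and Ryr2 were also at 0 in both controls, and at least 9.79-fold and 9.69-fold higher in cKO. Parm1 stood at 1.22 and 3.80 CPM against 57.2 and 48.9 (3.73). The fatty acid receptor Cd36 fell from 70.7 and 74.2 to 8.03 and 2.49 CPM (−3.53, adjusted p = 2.66e-04), and Plac8 from 405 and 476 to 130 and 85.8 (−2.02). Among the constant genes Ighm (−1.87, adjusted p = 0.00364) and Iglc2 (−2.73, adjusted p = 0.0115) were called lower, but lost the call with the batch block (adjusted p = 0.499 and 0.605), and Ighg3 differed by −5.68 (adjusted p = 0.00403; 0.998 under the stricter rule). The Ighg3 level in total rested on few cells, since 1 and 2 control cells and 0 and 1 cKO cells were led by it.

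YFP+ plasma cells were also set against total plasma cells of the same genotype, to ask what the reporter gate selected. In controls edgeR called 7 of 11560 genes (0.0606%), all higher in YFP+. The block gave 58 higher and 68 lower calls, DESeq2 gave 5 lower calls and none shared with the 7, and fits without 1 library called 30 to 126 genes, so neither the number nor the direction of these calls was stable. One of the 7 was Ighg2b, at 3261 and 2175 CPM in total and 9428 and 14902 in YFP+ (2.16, adjusted p = 0.0414). DESeq2 was run without the immunoglobulin genes, so it could not have called Ighg2b. In cKO 14 of 9742 genes were called (0.144%; 13 higher in YFP+, 0.133%), or 220 with the block (151 higher, 1.55%, and 69 lower, 0.708%) and 8 to 160 without 1 library. Without cKO total 1 the calls were 3 higher and 7 lower and without cKO total 2 they were 2 and 6, with 2 of the 14 among them each time. Cd80 stood at 7.76 and 6.90 CPM in cKO total and at 38.6 and 37.2 in cKO YFP+ (2.26, adjusted p = 0.00521). Tnfsf4 was at 0 in both cKO total libraries and at 14.3 and 15.3 in cKO YFP+ (at least 15-fold higher, adjusted p = 0.00667). Both ligands were lower in both cKO total libraries than in both cKO YFP+ libraries. Il4i1 (1.49) and the survival genes Bcl2a1d (1.71) and Bcl2a1b (1.53) were higher in cKO YFP+ as well. These 5 genes kept their direction but not the call without either cKO total library, and were called without either cKO YFP+ library. With the block, 37 of 82 ribosomal protein genes rose in cKO YFP+ over cKO total and 12 of 31 ER chaperones fell, while 0 of either were called without it or by DESeq2, with 29 and 5 under an unadjusted p of 0.05. Whether the genotype difference itself differed between sorts was tested by an interaction over all 8 libraries, in which edgeR called 0 of 10352 genes and DESeq2 3. The fit with the block called 14, that under the stricter rule 1, and without either 304 had an unadjusted p under 0.05.

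The plasma cells were then compared with the other B cells of the same YFP+ libraries, 63079 cells over all 8 libraries chosen by a UMI of a B cell marker gene such as Cd79a or Ms4a1. The genotype difference itself differed between the 2 classes in 1389 of 15700 genes (8.85%; 681 more positive in plasma cells, 4.34%, and 708 more negative, 4.51%), and the block called 2342. Most of these calls did not outlast the stricter rule, under which 338 of 15519 genes were called (2.18%; 159 more positive, 1.02%, and 179 more negative, 1.15%), 307 of them among the 1389. Without control replicate 2 the count was 436 and without cKO replicate 1 it was 748. Of the ER chaperones 20 of 31 were more negative in plasma cells (median −0.74) and 4 under the stricter rule (median −0.45). The export genes had 35 of 49 more negative (median −0.69) and 7 under the stricter rule (median −0.45). Of the cell cycle genes 29 of 34 were more positive (median 0.81), but 1 under the stricter rule (median 0.42). This list was itself not higher in cKO plasma cells of the YFP+ sort (median −0.06, or −0.49 under the stricter rule). Among the other B cells, the cycling share was 8.37% and 6.69% for the cKO YFP+ libraries, against 14.5% and 23.6% for their controls. The part that the make-up of the other B cells had in the interaction terms was not tested. Of the interferon-stimulated genes 8 were more negative, and edgeR called 0 under the stricter rule, with 4 under an unadjusted p of 0.05. The costimulation genes had 4 more positive under both rules. Fcer2a, Tnfsf4, Cd80 and Cd40 had interaction terms of 1.05, 1.65, 1.18 and 0.70, and of 1.41, 1.95, 1.56 and 1.05 under the stricter rule, each called, so their increase was larger in plasma cells. Tmem176b and Cish, at −3.00 and −1.75, or −2.68 and −1.65 under the stricter rule, had the larger increase in the other B cells.

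**Figure D4:**
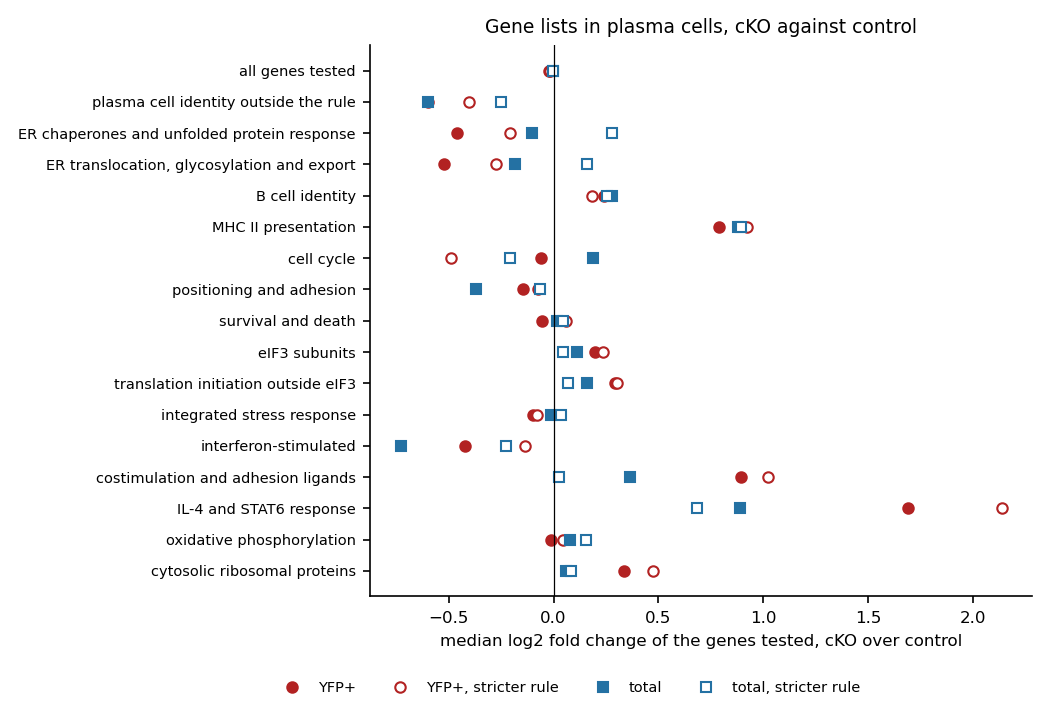
Median log2 difference of each gene list in plasma cells, cKO over control; red circles are YFP+ and blue squares total, filled for all members and open for the stricter rule. IL-4 response genes lie highest in YFP+ under both rules (1.69 and 2.14), and the cell cycle genes of YFP+ move from −0.06 to −0.49 and the ER chaperones of total from −0.10 to 0.28 under the stricter rule.

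Ighe-led cells of the cKO were set against Ighg1-led cells of the same libraries, a comparison added after the isotypes had been seen. Cells were summed by isotype in each of the 4 cKO libraries, with the library as a block. The 4 libraries are YFP+ and total sorts of 2 batches and may share mice. They are therefore not shown to be independent, here or in the comparison with Ighm-led cells below. Because the Ighg1-led cells lay nearer to the edge of the rule, with a median of 41.5, 62.5, 177 and 37.5 Jchain UMIs against 319, 653, 487.5 and 773 in Ighe-led cells, the comparison was repeated with cells that met the stricter rule. These were 18, 9, 12 and 7 Ighg1-led and 14, 36, 9 and 25 Ighe-led cells of cKO YFP+ 1 and 2 and cKO total 1 and 2.

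Most of the differences were seen with all members and not under the stricter rule. With all members 565 of 7038 genes differed (8.03%; 314 higher in Ighe-led cells, 4.46%, and 251 lower, 3.57%), and 98 without cKO YFP+ replicate 2, or 247 to 428 without any other library. With the stricter rule 21 of 4909 genes were called (0.428%; 5 higher, 0.102%, and 16 lower, 0.326%), 12 of them among the 565, and 7 of the 21 were immunoglobulin genes. Of these the kappa light chain V genes Igkv14-111 and Igkv1-117 were higher in Ighe-led cells (4.50 and 4.38, adjusted p = 2.48e-04 and 3.73e-04). The other immunoglobulin genes called were lower. Of 31 ER chaperones 23 were called higher with all members (median 0.95) and 0 under the stricter rule by edgeR, with 8 under an unadjusted p of 0.05 and a median of 0.09. Of the ER export genes 34 of 49 were higher with all members (median 0.76), and 0 of 47 under the stricter rule, with 3 under an unadjusted p of 0.05 and a median of −0.05. Of 34 cell cycle genes 21 were lower with all members (median −0.71), whereas under the stricter rule 0 of 33 were called, 1 had an unadjusted p under 0.05 and the median was 0.41. The plasma cell identity genes had 9 higher of 23 with all members (median 0.56) and 1 in each direction under the stricter rule (median −0.28).

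Hspa5, the chaperone BiP that holds unfolded heavy chains, stood at 729, 1076, 1207 and 2998 CPM in Ighg1-led and at 1578, 3292, 2700.4 and 4602 in Ighe-led cells with all members (1.12). Among cells that met the stricter rule it stood at 1347, 2235, 2003 and 9962 against 1563, 3353, 2677 and 5415 (0.09, adjusted p = 0.971). The difference of Calr, a lectin chaperone, changed from 1.47 to 0.65 (adjusted p = 0.188), that of Dnajc3, a co-chaperone of BiP, from 1.49 to 0.49 (adjusted p = 0.378), and that of Hsp90b1, the ER chaperone GRP94, from 1.11 to −0.11 (adjusted p = 0.947). Calr and Dnajc3 remained higher in the Ighe-led sum of each of the 4 libraries under the stricter rule, with unadjusted p of 0.00315 and 0.0130, and Hspa5 and Hsp90b1 did not. Mki67, a proliferation marker, went from −0.72 to 0.72 (adjusted p = 0.897), and the mitotic genes Ccnb2 and Kif23 from −1.36 and −1.40 to 0.18 and 0.12. Cycling cells made up 52.9%, 34.1%, 60% and 31.0% of Ighe-led and 47.6%, 70%, 52.4% and 60% of Ighg1-led cells, and under the stricter rule 42.9%, 27.8%, 55.6% and 24% against 11.1%, 44.4%, 33.3% and 0%.

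Txndc5, Akap6 and Slc3a2 were higher in Ighe-led cells under both rules. Txndc5, a disulfide isomerase of the ER, stood at 220, 194, 298 and 172 CPM in Ighg1-led and 699.5, 1441, 1563 and 1777 in Ighe-led cells (2.56, adjusted p = 3.97e-04). With the stricter rule it stood at 409, 297, 362 and 262 against 695.5, 1514, 1568 and 2065 (2.01, adjusted p = 0.0455). Akap6, a kinase anchor of muscle and nerve, stood at 0, 1.76, 4.38 and 0 against 32.2, 56.5, 70.2 and 68.1 (3.76), and under the stricter rule at 0, 4.57, 8.73 and 0 against 34.0, 56.3, 71.3 and 78.7 (2.97, adjusted p = 0.00246). Both genes were higher in every Ighe-led sum than in any Ighg1-led sum under both rules. The amino acid transporter chain gene Slc3a2 differed by 1.41 with all members and by 1.12 under the stricter rule (adjusted p = 0.0135). Other genes passed under the stricter rule alone and are named after their values were seen: Cd274, the ligand PD-L1 (−1.25, adjusted p = 0.0232), the integrin chain Itga4 (−1.09, adjusted p = 0.0135) and Tent5c, a poly(A) polymerase of plasma cells (−1.11, adjusted p = 0.0370) were lower in Ighe-led cells.

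**Figure D5:**
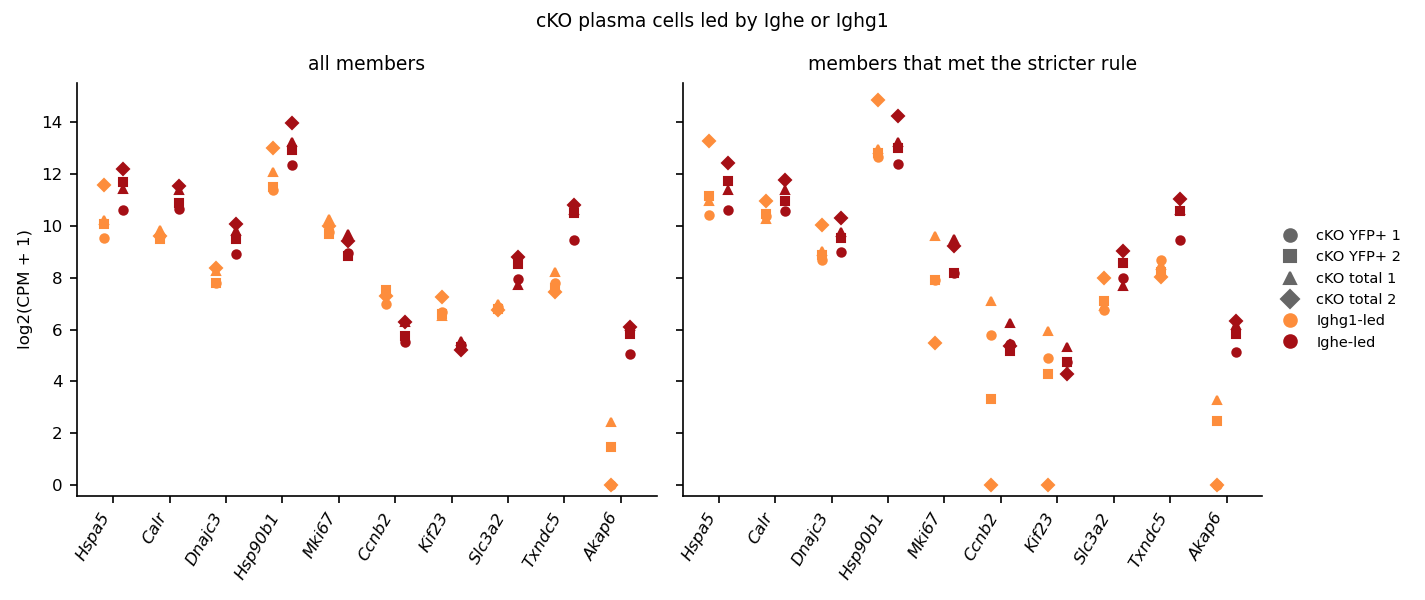
Levels of 10 genes in Ighg1-led and Ighe-led plasma cells of each of the 4 cKO libraries, as log2(CPM + 1), with all members (left) and with members that met the stricter rule (right); colors mark the isotype and symbols the library. On the left Calr and Dnajc3 are apart between the isotypes, and on the right their ranges overlap although the Ighe-led sum is the higher one in each of the 4 libraries; Hsp90b1 and Ccnb2 have no common direction over the libraries on the right, while Txndc5 and Akap6 are apart on both sides.

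Against Ighm-led cells of the same cKO libraries, Ighe-led cells differed in 195 of 6399 genes (3.05%; 50 higher, 0.781%, and 145 lower, 2.27%). The stricter rule gave 258 calls among 5911 genes (4.36%), 155 of them among the 195. Of the ER chaperones 12 were higher and 1 lower with all members (median 0.39), but 1 was higher and 2 lower under the stricter rule (median 0.12). Of the identity genes 3 were higher and 8 lower, and 0 and 9 under the stricter rule. Nes (nestin) had 0 UMIs in all 4 Ighm-led sums and stood at 6.86, 66.9, 50.5 and 126 CPM in Ighe-led cells (at least 33.2-fold higher). Apoe, a lipid carrier, stood at 493, 461, 269 and 543 in Ighm-led and 29.1, 20.7, 27.0 and 13.7 in Ighe-led cells (−4.17, adjusted p = 1.3e-09). The cytokine Il10 stood at 28.1, 200, 64.8 and 254 against 3.43, 6.61, 0 and 11.2 (−3.94). Each of these 3 separated the 2 isotypes in every library. Cd9 stood at 27.2, 48.8, 54.8 and 116 in Ighm-led cells and between 6.23 and 6.86 in Ighe-led cells (−2.58). Fcer1g (−2.77), Ifi27l2a (−1.76) and Tent5c (−1.14) were lower, while Cd52 (1.78) and Akap6 (1.98) were higher in Ighe-led cells than in Ighm-led cells too. Nes, Apoe, Il10, Cd9, Fcer1g, Ifi27l2a, Tent5c, Cd52 and Akap6 were also called under the stricter rule, in the same direction.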

How the data were processed

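Spleen cells of cKO and control mice were sorted as total live or YFP+ cells and read in 8 libraries with the SeekOne DD 3′ kit. The authors deposited UMI counts per gene and cell without normalization. The processing notes name GRCm38 and mm10, whereas the aligner and annotation were not given in the sources used here. GENCODE vM21 gave gene positions, and RefSeq (GRCm38.p6) gave promoters.

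Of 83967 barcodes, 83704 passed a filter of over 100 detected genes and no more than 10% UMIs from mitochondrial genes. The members and the 25 gene lists were chosen with earlier results of these data known. Counts were summed per library without 392 immunoglobulin genes in the library size, and tested with edgeR 4.0.16 (R 4.3.3, quasi-likelihood, TMM, filterByExpr, prior count 2) with Benjamini-Hochberg adjustment at 0.05. DESeq2 1.42.0, limma 3.58.1 (pseudocount 1), other rules for members and left-out libraries were alternatives. The DESeq2 fits tested no immunoglobulin genes. Isotypes, shares and thinning used Python 3.11.15, numpy 2.4.6, scipy 1.17.1 and pandas 2.3.3. Cells were never replicates. Doublets were kept. An alternative removed the top 8% of a simulated-doublet score per library and cells with at least 2 of 8 genes of other lineages. It took out 250 of 883 and 235 of 1122 control YFP+ and 39 of 154 and 21 of 123 cKO YFP+ members. Of the total libraries it took out 13 of 45 and 7 of 31 control and 4 of 53 and 24 of 84 cKO members.

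The labels give each library a batch, and the deviations of same-batch libraries from their group means correlated at 0.20 to 0.28 in all 4 pairings, so the batch number pairs them. Library depth in plasma cells ran from 532410 to 16524427 summed non-immunoglobulin UMIs. On simulated counts with known changes the YFP+ test recovered 15.4% of genes changed by log2 1 and 81.4% by log2 2, and the total test 12.9% and 83.2%. Named genes were the called genes of each list (or those of lowest p), the 12 called genes of largest change each way in YFP+ and the 5 each way elsewhere, with at least 50 UMIs and groups that did not overlap. The text gives a selection of these. The comparisons by isotype, and those without Ighe- and Ighg1-led cells, were added after the isotypes were seen, and so were their repeat and that of the 2 tests of interaction under the stricter rule.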

Additional observations from a re-analysis of the deposited data

Results flagged for a closer look

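The share of plasma cells moved in opposite directions in the 2 sorts: both cKO libraries lay below both controls among YFP+ cells and above them among total splenocytes, and the log2 effect in YFP+ minus that in total was −3.68 (exact permutation p = 0.0556, the smallest that 36 labelings allow). In total splenocytes cKO total 1 lay below control total 1 under the stricter rule (0.372% against 0.376%) and with B cells and plasma cells as the denominator (0.784% against 0.789%), and the p of the difference was then 0.111 in both. Without cKO total 2 the difference in total fell from 0.281 to 0.137 percentage points. The labelings treat the 2 sorts as independent, although their libraries shared batches, so the p-values can be too small.

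Within the YFP+ libraries, a test of the difference between plasma cells and the other B cells found 1389 genes whose genotype effect differed (edgeR's quasi-likelihood test with Benjamini-Hochberg adjustment), and 338 under the stricter rule. Of the 31 genes given here 14 were also called under that rule, and none changed sign. Of the genes named for plasma cells, these had an interaction term past the threshold, as the log2 effect in plasma cells minus that in other B cells. Among IL-4 response genes the terms were −3.00 for Tmem176b, −2.65 for Tmem176a, −1.75 for Cish, −0.72 for Nfil3 and 1.05 for Fcer2a. Among costimulation genes they were 0.70 for Cd40, 1.18 for Cd80, 1.19 for Pdcd1lg2 and 1.65 for Tnfsf4. The immunoglobulin constant genes had −2.35 for Iglc2, −1.10 for Iglc3, 1.95 for Ighg3, 2.35 for Ighg2c and 2.56 for Igha. A positive term is not a rise in plasma cells, since Ighg3 itself was lower in cKO YFP+ plasma cells. Jchain stood at 405 and 501 CPM in the other B cells of control YFP+ and at 80.6 and 49.6 in those of cKO YFP+. The part that such differences between the other B cells had in these terms was not tested. Genes of stress and interferon response had −1.38 for Cdkn1a, −0.93 for Isg15 and −0.68 for Atf6.

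Outside these groups, Ccl4 had −5.25, Aldh1a2 −4.67, Cpd −2.11, Agbl1 −1.91 and Phlda3 −1.23, while Uhrf1 had 0.75, Zfas1 0.71, Ryr2 1.84, Slc24a2 1.99 and Emp2 3.54. Markers of other cells were among them: Cox6a2 had −4.70 and Pacsin1 0.78 of the plasmacytoid dendritic cell list, Prf1 −1.72 of the NK list and Hbb-bt 1.68 of the erythroid list. Their part in the other terms was not tested.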

How the results depend on the processing

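The YFP+ share difference of −8.23 points was −7.00 under the stricter rule, −9.13 under the looser rule, −6.16 without doublets and −8.65 among B cells (leave-one-out −8.40 to −8.05; total 0.137 to 0.424). The cycling difference in YFP+ was 0.514 without thinning and −11.8 under the stricter rule (leave-one-out −3.60 to 3.27, with 1.67 without cKO replicate 2), and in total 4.97 with at least 1 UMI and −2.98 under the stricter rule (7.62 to 11.1). The stricter rule also gave 0.32 for the log2 median UMIs (leave-one-out 0.40 to 0.64) and −6.64 for the immunoglobulin share (−11.6 to −7.86).

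With the batch as a replicate block, genes called numbered 1250 in YFP+, 484 in total, 126 and 220 between sorts in control and cKO, 14 for the interaction of genotype and sort and 2342 for genotype and class. Without a filter on low counts they numbered 692, 291, 71, 133 and 26 for the first 5 of these, and with limma on per-cell means 78, 17, 3 and 7 for the first 4. DESeq2 called 58 in total, 3 for the interaction with sort, 310 for Ighe-led against Ighg1-led and 125 against Ighm-led cells. The stricter rule called 15 in total and 17 and 30 between sorts in control and cKO, the looser rule 7 in cKO, and doublet removal 23 and 8. Without cycling cells 188, 13 and 8 were called in YFP+, total and between cKO sorts, and without Ighe- and Ighg1-led cells 111, 7 and 6. The interaction of genotype and class had 338 calls and that with sort 1 under the stricter rule. Ighm-led cells alone gave 170 in YFP+ and 0 in total, and Ighg1-led cells alone 576 in YFP+, or 41 under the stricter rule. Ighe-led against Ighg1-led cells gave 167 in YFP+ libraries alone and 21 under the stricter rule, where of 118 tested genes that had been named and called 4 were called and 56 changed sign, and Ighe-led against Ighm-led cells 42 without the library block. Leaving out 1 library gave 125 to 342 in YFP+, 79 to 367 in total, 30 to 126 and 8 to 160 between sorts, 0 to 4 and 436 to 1422 for the 2 interactions, and 98 to 428 and 113 to 264 for the isotype comparisons. The causes were not tested.

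The IgM share in total differed by −1.67 with the block, −1.79 under the looser rule, −1.71 without doublets and −1.64 with Ighg2b and Ighg2c joined (each called; leave-one-out −2.19 to −1.27). Leaving out 1 library gave 5.59 to 7.41 for Ighe in YFP+ and 2.73 to 5.10 in total, where the call was lost without either control library, as was that of Ighg1 (4.75 to 5.29, fitted values over control libraries at 0 cells). In YFP+, Ighg1 ranged from 0.46 to 3.27 and was called without control replicate 2, and Ighm from −1.92 to −0.36. The sign turned for Igha in YFP+ (0.23 under the stricter rule, 0.27 without control replicate 1, 0.09 without cKO replicate 2; leave-one-out from −0.38), Ighg2c (0.12 without control replicate 2, from −1.97) and Ighg2b in total (−0.093 with the block, −0.14 without control replicate 1, up to 0.97). Among genes it turned with a call in either fit for Ighd (1.26 in Ighm-led cells, 1.55 without control replicate 2, from −0.93) and Ighg1 in YFP+ (−0.99 in Ighg1-led cells), and in total for Ighg2b (−2.55 without cKO replicate 2, up to 2.71) and, in Ighm-led cells, Ighm (0.45), Cd9 (0.017), Trp53inp1 (0.32) and Bcl2 (0.46). Between Ighe-led and Ighg1-led cells it turned under the stricter rule for Hsp90b1 (−0.11), Ccnb2 (0.18), Kif23 (0.12) and Mki67 (0.72). Over all alternatives named genes, with those of the Ighe-led against Ighg1-led comparison that the text names, had 567 lost and 173 gained calls and 3519 unchanged ones, which include 186 changes of sign with no call in either fit, over 69 of 326 gene values. Where 1 library was left out, the lone library of its group was taken to vary like the other group. On simulated counts the test of YFP+ against total in controls recovered 4.21% of genes changed by log2 1 and 56.4% by log2 2, fewer than the other 3 tests simulated.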

Other observations

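Of 16 host genes of small nucleolar RNAs tested, 4 were called higher in cKO YFP+ plasma cells and none lower, or 8 higher with the batch block, in fits that called 1.8% and 5.05% of all genes higher. The list was added after values of its genes were seen, so its count is a description. Their introns carry the RNAs that guide ribosomal RNA modification, and the spliced host transcripts are known to be degraded in a translation-dependent way. Zfas1 stood at 55.1 and 52.5 CPM in control YFP+ and at 290 and 241 in cKO YFP+ (log2 difference 2.30, adjusted p = 2.93e-05 by edgeR's quasi-likelihood test with Benjamini-Hochberg adjustment). Snhg15 stood at 10.3 and 14.5 against 98.9 and 54.0 (2.60, adjusted p = 1.64e-04), and Gas5 at 174 and 206 against 425 and 436 (1.18, adjusted p = 0.0207). Both cKO libraries were above both controls in each of these 3 genes. The median over the 16 was 0.75, against −0.02 over all genes. The transcript 1110038B12Rik, also named after its values were seen, stood at 49.9 and 57.3 against 174 and 155 (1.62).

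In total plasma cells Zfas1 stood at 63.4 and 49.5 CPM in control and at 70.2 and 87.8 in cKO (0.47, adjusted p = 0.689), and of 11 host genes tested edgeR and DESeq2 called 0, with 1 under an unadjusted p of 0.05. Between the sorts of the cKO, Zfas1 stood at 67.9 and 86.7 in total and at 291 and 241 in YFP+ plasma cells (1.76, adjusted p = 0.00521, and 0.0843 and 0.0743 without either cKO total library). There 6 host genes rose with the batch block and 1 without it, in fits that called 1.55% and 0.133% of all genes higher. In controls the 2 sorts had similar values, between 49.5 and 63.4 CPM in all 4 libraries. The interaction term of genotype and cell class for Zfas1 was 0.71, so its difference was larger in plasma cells than in the other B cells of the same libraries.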
